A study of Canis lupus familiaris with 45 samples.

Results

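The late phase of a feeding experiment in dogs, from week 12 to week 24, was followed in subcutaneous fat. The quantity of interest, called the late shift here, is the change from week 12 to week 24 in dogs fed ad libitum minus the same change in control dogs, with both weeks taken from the same animal. All probe sets other than the AFFX array controls entered, and 22690 of 42924 were above background and tested. The arrays of weeks 12 and 24 were 18 of the 45 in the series, 1 per dog and week.

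All animals were intact female beagles, 4 years old, and all received the same diet, Purina Pro Plan Performance Formula. Dogs 1, 3, 4 and 9 were controls given enough food to hold their starting body weight (n = 4), and dogs 2, 5, 6, 7 and 8 ate ad libitum from the start (n = 5). Feeding was assigned at random, fat was taken after an overnight fast, and total RNA was extracted with Trizol. Body weights were not analysed here, so the groups are described by how they were fed. At week 12 the groups were spread unequally over the batches numbered 1 to 5 in the labels. Ad libitum dogs 2, 5, 6, 7 and 8 were in batches 5, 1, 2, 1 and 4, and control dogs 1, 3, 4 and 9 in batches 3, 4, 3 and 2. At week 24 all 9 arrays were in batch 6. A change within a group is therefore also a change of batch, and feeding time and batch cannot be told apart there. The late shift compares groups that moved to the same batch, though from unlike batches at week 12.

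White fat stores energy as triglyceride, which fat cells assemble from glycerol phosphate and fatty acids taken from the blood or made from glucose, and which they wrap in lipid droplets coated by perilipins. Fasting and adrenergic signals break triglyceride down again through a chain of lipases, and mitochondria in the fat cell burn part of the fatty acids and supply carbon for new ones. Fat is also a secretory tissue that releases leptin, adiponectin, complement proteins and prostaglandins, and its fibroblasts lay down the collagen around the cells.

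The labelled tissue carried its markers: 13 of 13 fat cell markers on the array were above background, and their mean lay between 10.97 and 13.57 on the log2 scale in the 18 samples. In bulk tissue, fewer cells of a type and less RNA per cell cannot be told apart. Every array of weeks 12 and 24 matched its labelled dog best in a check on 100 probe sets that separate the animals. Skeletal muscle RNA was present in 3 of the 18 arrays, those of control dogs 3 and 4 at week 24, with marker means of 10.65 and 10.17, and of ad libitum dog 7 at week 12, with 8.45. The other 15 lay between 4.31 and 5.97. The muscle marker mean changed by 2.86 ± 3.51 (SD, n = 4) in control and -0.54 ± 1.09 (SD, n = 5) in ad libitum dogs, a difference of -3.40 (2-sided exact permutation test over all splits of the 9 dogs, p = 0.0952, smallest possible 0.00794). The 3' minus 5' value of actin, a sign of RNA breakdown that grows as messages lose their 5' ends, was higher at week 24 than at week 12 by 2.85 ± 0.99 (SD, n = 4) in control and by 1.02 ± 0.78 (SD, n = 5) in ad libitum dogs. That difference of -1.83 had an exact permutation p of 0.0397, or 0.0794 after adjustment over the 2 measures, while the corresponding GAPDH value differed by -0.08 (p = 0.667). Among ad libitum dogs the actin value changed most in dogs 5 and 7, by 1.96 and 1.69, and least in dog 2, by 0.08.

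**Figure D1:**
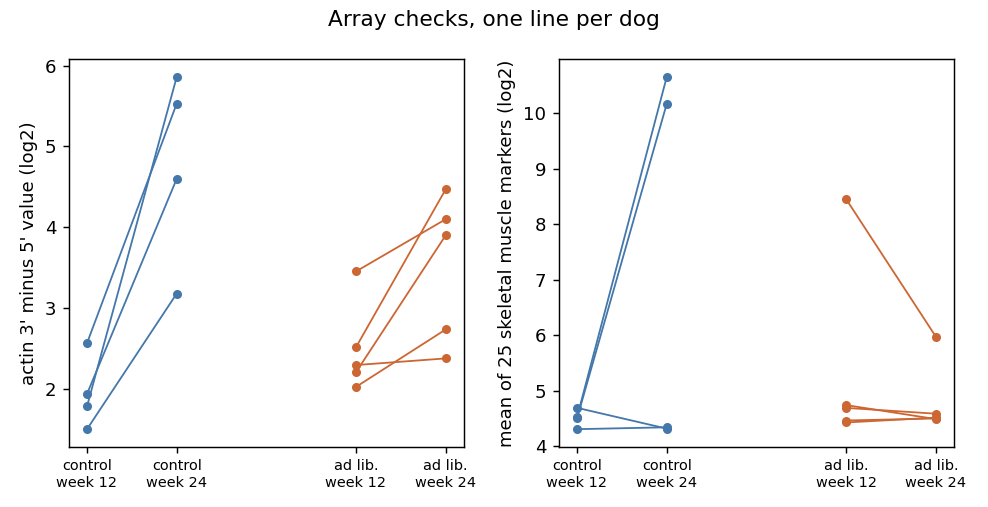
The actin 3' minus 5' value (left) and the mean of 25 skeletal muscle markers (right), both in log2 units, in each dog at weeks 12 and 24, with 1 line per dog (control blue, n = 4; ad libitum orange, n = 5). The actin value was higher at week 24 in every dog, by 1.68 to 4.08 in controls and 0.08 to 1.96 in ad libitum dogs, and the muscle mean was above 7 in 2 control dogs at week 24 and 1 ad libitum dog at week 12.

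Between week 12 and week 24 the groups parted in 8 probe sets (0.0353% of those tested) at an adjusted p of 0.05 in limma, 5 with a higher (0.0220%) and 3 with a lower (0.0132%) late shift. Higher were PFKFB3, which makes the sugar phosphate that drives glycolysis, KIAA1191, ZCCHC24 and 2 probe sets without a gene name. Lower were AZGP1, a secreted protein that mobilises lipid, TBC1D8, of a family that switches off Rab proteins in membrane traffic, and KIF5A, a kinesin motor best known from neurons. At an unadjusted p of 0.05, 4307 probe sets (19.0%) were past the bound, and 113 had an adjusted p under 0.1, so many genes stood just outside the threshold: GINS1 and ECI1, the nearest named genes, were at an adjusted p of 0.0515. When the 9 within-dog changes were compared directly, without the arrays of earlier weeks and without a batch term, limma called 148 probe sets (0.652%), 103 higher and 45 lower. That comparison makes no allowance for the unequal batches of week 12. Of the 8 probe sets, 5 were among these 148; KIF5A, ZCCHC24 and TBC1D8 were not, at adjusted p-values of 0.0557, 0.0513 and 0.0593. At their brightest probe sets 55 genes were called this way (0.604%), 41 higher (0.450%) and 14 lower (0.154%).

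The number of calls rested on single animals. It was 502 without ad libitum dog 5, 416 of them higher, and 4 without control dog 1, 3 without ad libitum dog 7, 2 without control dog 3, ad libitum dog 6 or ad libitum dog 8, 1 without control dog 9 and 0 without ad libitum dog 2 or control dog 4, where 3682 and 4228 probe sets still had an unadjusted p under 0.05. Without the 10 arrays that carried muscle RNA, 4 probe sets were called. Dogs 1 and 9 were then the only controls left at week 24, here and wherever these arrays are left out below. Of the 9113 genes tested, each at its brightest probe set, 763 were higher and 532 lower in that setting at an unadjusted p under 0.05. With the actin value of each array as a covariate, limma called 0, with 1390 probe sets at an unadjusted p under 0.05. The late shifts of AZGP1, ZCCHC24, KIF5A and PFKFB3 were then -5.30, 2.81, -1.25 and 2.17, against -5.71, 2.88, -1.37 and 2.68 without it, and those of KIAA1191 and TBC1D8 were 2.42 and -1.15, against 3.89 and -1.75. The part of RNA quality in the late shift was not tested beyond these values.

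By the groups' own changes, control dogs moved more than ad libitum dogs. Each of these changes includes the move to batch 6, so how the shift divides between the groups cannot be told apart from batch. Of the 9113 genes tested, each at its brightest probe set, 1131 (12.4%) had a higher late shift at an unadjusted p under 0.05, and in 1112 of them the control dogs' change was below 0, while the ad libitum dogs' change was above 0 in 641. The control change was the larger in size in 994. Of the 640 genes (7.02%) with a lower late shift at that bound, the control change was above 0 in 630 and the ad libitum change below 0 in 362. These genes were picked by the difference between the same changes, so the counts by sign are in part set by that choice. They are given without a share over all genes and carry no support of their own. Over all genes tested the median change was -0.08 in control and -0.01 in ad libitum dogs. On its own, the change from week 12 to week 24 passed an adjusted p of 0.05 in limma for 7360 probe sets (32.4%) in control and 262 (1.15%) in ad libitum dogs, of which batch is part. With the actin covariate these numbers were 1 and 114. Without the arrays with muscle the control number was 3521, and it was 2014 without control dog 3 and 2352 without control dog 9. Leaving out ad libitum dogs 2, 5, 6, 7 and 8 in turn brought the ad libitum number to 40, 161, 12, 32 and 108, and it was 167 without control dog 9 and 835 without control dog 1.

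AZGP1, also called zinc-alpha-2-glycoprotein, showed the largest fall of the 8. At week 12 its log2 level in ad libitum dogs 2, 5, 6, 7 and 8 was 9.13, 6.99, 7.14, 8.10 and 7.30. At week 24 the same dogs were at 2.40, 2.33, 2.47, 2.33 and 2.32. Control dogs 1, 3, 4 and 9 were at 2.31, 2.33, 2.39 and 2.42 at week 12 and at 2.35, 2.33, 5.71 and 2.32 at week 24. All ad libitum dogs thus held the gene well above background at week 12 and none did at week 24, and in the controls it was above background only in dog 4 at week 24. The late shift was -5.71 (SE 1.10, adjusted p = 0.0359 in limma), a size set in part by the array background at which the week-24 levels lie. It was made of a fall by 5.20 in ad libitum dogs (adjusted p = 1.34e-04) and a change of 0.51 in controls (adjusted p = 0.663). These sizes come from the fit with batch terms and are not the means of the dogs' own changes. Over the within-dog changes, without a batch term, the late shift was -6.18 (adjusted p = 0.0346 in limma).

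The earlier weeks show how long the gene had been on. AZGP1 stood at background in every dog at week 0, where the ad libitum mean was 2.31 ± 0.05 (SD, n = 5). In ad libitum dogs it was 8.26 ± 1.21 (SD, n = 5) at week 4, 6.72 ± 2.60 (SD, n = 5) at week 8 and 7.73 ± 0.89 (SD, n = 5) at week 12, against 2.37 ± 0.06 (SD, n = 5) at week 24. The low dog at week 8 was dog 5, at 2.35, and in the identity check that array matched dog 9 best, and the array under the name of dog 9 at that week matched dog 5. That array was at 2.47, so the gene was at background in dog 5 at week 8 under either name. The second AZGP1 probe set had a late shift of -0.45, so the finding rests on 1 probe set. EPCAM, a surface protein of epithelial cells, was at 13.86 in control dog 4 at week 24, the one control sample with AZGP1 above background, and at 8.67 in control dog 3 at week 12, where AZGP1 was 2.33. In the 10 ad libitum samples EPCAM lay between 2.99 and 3.60. EPCAM was the only epithelial marker tested, of 9 from its list on the array. The part of epithelial cells in AZGP1 was not tested in either group.

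**Figure D2:**
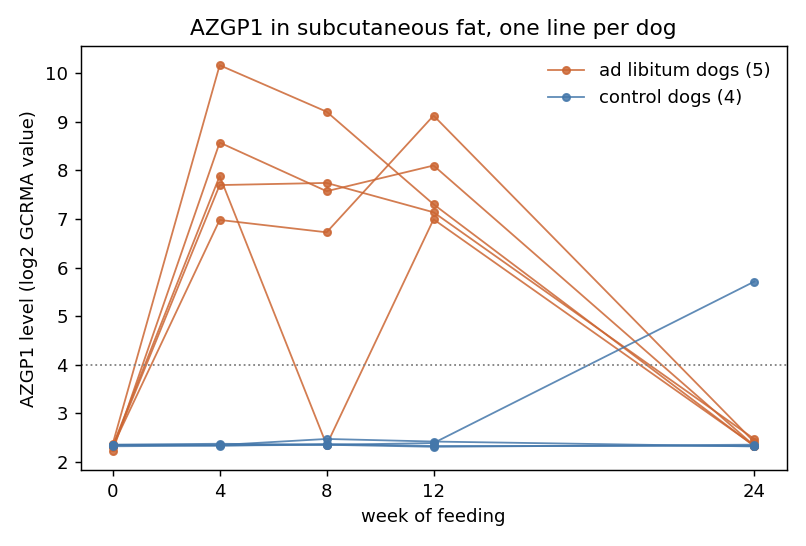
Log2 GCRMA value of AZGP1 in each dog at weeks 0, 4, 8, 12 and 24 of feeding (orange, ad libitum, n = 5; blue, control, n = 4; dotted line, the value of 4 used as the filter on low values). Ad libitum dogs were between 6.99 and 9.13 at week 12 and between 2.32 and 2.47 at week 24, and control dog 4 reached 5.71 at week 24.

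PFKFB3 was high in every sample and moved in opposite directions. In controls 1, 3, 4 and 9 its level went from 12.62, 12.96, 12.08 and 12.73 at week 12 to 11.40, 10.60, 10.57 and 11.31 at week 24. In ad libitum dogs 2, 5, 6, 7 and 8 it went from 12.80, 10.68, 11.04, 12.51 and 10.83 to 13.26, 11.04, 12.48, 12.74 and 12.57. Every control dog was lower at week 24 and every ad libitum dog higher, with no overlap of their changes. The late shift was 2.68 (SE 0.507, adjusted p = 0.0359 in limma), with a fall by 1.82 in controls (adjusted p = 0.00108) and a change of 0.86 in ad libitum dogs (adjusted p = 0.160). All 3 PFKFB3 probe sets were positive, from 2.68 to 3.18. In the 2 batches that held a dog of each group at week 12, the change was 1.74 in ad libitum dog 8 against -2.36 in control dog 3 and 1.44 in ad libitum dog 6 against -1.42 in control dog 9. Since the groups' changes did not overlap, any pair across the groups differs in this direction. The part of the week-12 batches was not tested by these pairs.

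KIAA1191 went from 9.08, 9.28, 8.02 and 8.54 in controls 1, 3, 4 and 9 at week 12 to 4.32, 6.47, 4.30 and 4.36 at week 24. Its level in ad libitum dogs 2, 5, 6, 7 and 8 was 8.08, 7.51, 7.33, 8.32 and 7.10 at week 12 and 8.81, 5.78, 7.69, 7.89 and 8.10 at week 24. All 4 controls thus dropped further than any ad libitum dog, with ad libitum dog 5 the nearest to them. Its late shift was 3.89 (SE 0.726, 14.8-fold, adjusted p = 0.0359 in limma). The controls fell by 3.91 (adjusted p = 4.25e-05), batch included. The 4 probe sets of the gene ranged from 0.75 to 3.89.

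TBC1D8 moved the other way, up in controls and not in ad libitum dogs. Its changes in controls 1, 3, 4 and 9 were 1.11, 0.54, 1.11 and 1.64, and in ad libitum dogs 2, 5, 6, 7 and 8 they were -1.48, 0.20, -0.46, -0.11 and -0.69. This gave a late shift of -1.75 (SE 0.349, adjusted p = 0.0498 in limma), at the edge of the threshold, and all 3 probe sets were negative, from -1.91 to -1.66. Controls rose by 1.19 (adjusted p = 0.00159), and the change in ad libitum dogs was -0.56 (adjusted p = 0.180).

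KIF5A and ZCCHC24 were dim, below 6 in the mean of every group and week, and were singled out after their values were seen. KIF5A changed in controls 1, 3, 4 and 9 by 1.34, 2.08, 1.90 and 1.39, all from levels near 3.5 that lie under the filter on low values. Its changes in ad libitum dogs 2, 5, 6, 7 and 8 were -0.07, 1.07, 0.14, 0.46 and 0.16. The groups did not overlap, and dog 5 was again the nearest to the controls. The late shift was -1.37 (SE 0.203), with the smallest adjusted p of all probe sets, 0.00246 in limma. KIF5A was below 4 on every array of weeks 0 to 12. It passed the filter only through week 24, where controls (4.88 to 5.53) and ad libitum dogs 5, 7 and 8 were above 4. Its place among the tested probe sets thus rests on arrays that this comparison uses. In ZCCHC24, as in AZGP1, the larger change, batch included, was in the ad libitum dogs. It was 2.34, 1.36, 3.99, 3.40 and 1.99 in dogs 2, 5, 6, 7 and 8, against 0.63, -0.90, -0.84 and 0.11 in controls 1, 3, 4 and 9. The late shift of ZCCHC24 was 2.88 (SE 0.525, adjusted p = 0.0359 in limma), with a rise of 2.59 in ad libitum dogs (adjusted p = 6.49e-05) and a change of -0.29 in controls, which did not pass. The 2 unnamed probe sets, whose array IDs share a root, had late shifts of 2.41 (SE 0.460) and 1.90 (SE 0.368), both with an adjusted p of 0.0359 in limma.

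**Figure D3:**
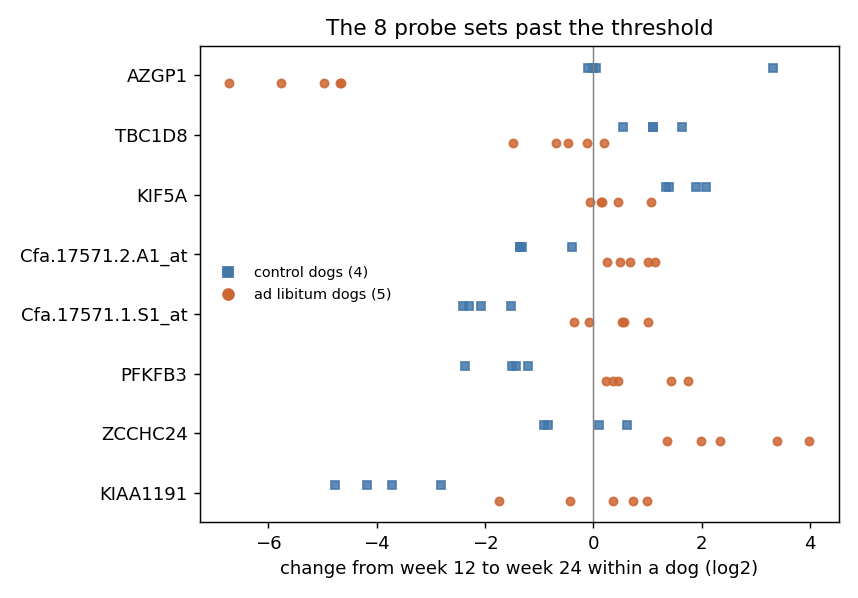
Change from week 12 to week 24 within each dog (log2) for the 8 probe sets with an adjusted p under 0.05 in the late shift (blue squares, 4 control dogs; orange circles, 5 ad libitum dogs). The groups did not overlap in any of the 8, as in 6.63% (higher) and 3.29% (lower) of all probe sets tested. By these changes, which include the change of batch, AZGP1 and ZCCHC24 moved more in the ad libitum dogs, and the other 6 more in the controls.

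The named genes just outside the threshold had varied roles. With a positive value stood ECI1, which prepares unsaturated fatty acids for oxidation in mitochondria, at 3.52 (SE 0.729, adjusted p = 0.0515 in limma), and SLC25A33, a mitochondrial carrier of pyrimidine nucleotides, at 3.34 (adjusted p = 0.0706). GINS1, a part of the DNA replication machinery, was at 1.77 (adjusted p = 0.0515), DESI1, which removes SUMO tags, at 3.94 (adjusted p = 0.0706), the arrestin-like ARRDC2 at 3.08 (adjusted p = 0.0710) and WDFY4, which serves antigen presentation in dendritic cells, at 2.52 (adjusted p = 0.0724). In the comparison of within-dog changes, 5 of these 6 passed, with adjusted p-values from 0.0239 for WDFY4 to 0.0471 for ARRDC2, and DESI1 was at 0.0513. With a negative value stood LTBP1, which binds latent TGF-beta in the matrix, at -1.79 (adjusted p = 0.0841), and LZTFL1, EZR, IKZF2, C32H4orf3 and PKP4, all at an adjusted p of 0.101, with values from -1.81 for PKP4 to -1.10 for the membrane linker ezrin (EZR). C32H4orf3 was the one of these 6 whose probe sets differed in sign, from -1.77 to 0.35. In each of these 12 genes, which were picked by their p in this comparison, the changes of the 5 ad libitum dogs and the 4 controls did not overlap, as in 6.59% (higher) and 3.02% (lower) of all genes tested.

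Genes that assemble triglyceride leaned together towards a higher late shift, and the larger of the groups' own changes, batch included, was in the controls. No gene of the list passed the threshold in the late shift, where 0.0353% of probe sets did, but all 13 measured genes had a positive value, with a median of 2.01 beside 0.01 over all genes tested, and 8 of the 13 had an unadjusted p under 0.05 (12.4% of all genes). In control dogs 6 of the 13 fell from week 12 to week 24 at an adjusted p of 0.05 in limma (17.9% of all genes fell), and in ad libitum dogs 0 changed (0.582% of all genes rose and 0.615% fell there). The lowest and highest list medians were -2.28 and -0.54 in controls and -0.65 and 0.67 in ad libitum dogs, and dog 5 gave the lowest of the ad libitum values. Without the arrays with muscle the median was 1.56 and 7 of 13 had an unadjusted p under 0.05 (763 of all 9113 genes were higher). With the actin covariate the median was 1.63. Fat cell markers, some of them members of the lipid lists, leaned likewise, with 12 of 13 positive and a median of 1.57. Of these, 6 had an unadjusted p under 0.05 (12.4% of all genes). Their median change was -0.93 in controls and 0.69 in ad libitum dogs. The part of fat cell content in the lean of the lipid lists was not tested.

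FITM2, which parcels new triglyceride into droplets, was low in every control at week 24. In controls 1, 3, 4 and 9 its level went from 7.05, 8.64, 6.66 and 7.21 to 2.68, 3.41, 2.57 and 3.42, down to background in all 4. Ad libitum dogs 2, 5, 6, 7 and 8 went from 7.70, 5.98, 6.17, 7.69 and 6.94 to 8.91, 3.41, 7.21, 7.42 and 7.71. Of the ad libitum dogs, dog 5 alone reached the level of the controls. FITM2 had a late shift of 4.47 (SE 1.01, adjusted p = 0.0791 in limma; 0.0424 over the within-dog changes), and the controls fell by 4.48 (adjusted p = 2.67e-04).

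PCK1 makes the glycerol backbone for triglyceride in fat from small carbon sources. Its level in controls 1, 3, 4 and 9 went from 14.57, 14.14, 13.90 and 14.40 to 12.30, 11.20, 12.75 and 12.72. In ad libitum dogs 2, 5, 6, 7 and 8 it went from 14.31, 11.14, 12.96, 14.32 and 14.42 to 14.73, 13.94, 14.59, 14.96 and 14.92. All controls were lower and all ad libitum dogs higher at week 24. Its late shift was 3.40 (adjusted p = 0.0898 in limma; 0.0459 over the within-dog changes), and its 3 probe sets ranged from 3.40 to 6.86. AQP7, the channel through which glycerol crosses the fat cell membrane, had a late shift of 3.20 (SE 0.798, adjusted p = 0.0947; 0.0459 over the within-dog changes). The acyltransferases DGAT2, DGAT1 and AGPAT2, which attach fatty acids to the backbone, were at 2.01, 2.09 and 2.03, with adjusted p-values of 0.0841, 0.104 and 0.112, and each fell in the controls, by 1.94, 2.38 and 2.22 (adjusted p at most 7.02e-04). GPD1, which makes glycerol phosphate from glucose, was at 1.95 (adjusted p = 0.103) and fell by 1.63 in controls (adjusted p = 0.00295).

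Lipid droplet proteins were positive in 11 of 11 measured genes, with a median late shift of 0.88, 6 at an unadjusted p under 0.05 (12.4% of all genes) and 6 that fell in controls (17.9% of all genes). Their medians by dog did not overlap, from -1.08 to -0.33 in controls and from -0.27 to 0.33 in ad libitum dogs. PLIN4, a perilipin of small droplets, was at 2.38 (adjusted p = 0.131 in limma), and CIDEC, which fuses droplets, at 1.57 (adjusted p = 0.151). PNPLA3, a lipid droplet enzyme, was at 4.47 (SE 1.21, adjusted p = 0.104), and fell by 3.68 in controls (adjusted p = 0.00331). It is counted in the fatty acid synthesis list and not among these 11 genes. Without the arrays with muscle the median of the lipid droplet list was 0.92 and 3 of 11 genes had an unadjusted p under 0.05 (763 of all 9113 genes were higher). With the actin covariate these were 0.69 and 3 (4.02% of all genes).

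The enzymes that break triglyceride down leaned the same way as those that build it. Of 8 measured genes of lipolysis and its control, 7 were positive, the median late shift was 1.85, and 7 had an unadjusted p under 0.05 (12.4% of all genes). This list had its ad libitum side above 0 as well: its medians by dog were 0.13 to 1.82 in ad libitum dogs and -1.52 to -0.20 in controls, with no overlap. LIPE, the hormone-sensitive lipase, changed by -1.31, -3.21, -0.24 and -0.58 in controls 1, 3, 4 and 9 and by 1.11, 0.22, 2.22, 0.56 and 1.41 in ad libitum dogs 2, 5, 6, 7 and 8. Its late shift was 2.56 (SE 0.747, adjusted p = 0.116 in limma), with a fall by 1.49 in controls (adjusted p = 0.0368). PNPLA2, the lipase that takes off the first fatty acid, was at 1.70 (adjusted p = 0.151), MGLL, which takes off the last, at 1.26 (adjusted p = 0.144), and PRKAR2B, a regulatory subunit of the kinase that activates LIPE, at 2.00 (adjusted p = 0.136). NPR3, which clears natriuretic peptides, was at 2.53 (adjusted p = 0.177). Without the arrays with muscle the list median was 1.41 and 3 of 8 genes had an unadjusted p under 0.05 (763 of all 9113 genes were higher). With the actin covariate these were again 1.41 and 3 (4.02% of all genes). Over the within-dog changes PRKAR2B and NPR3 passed, at adjusted p-values of 0.0493 and 0.0411.

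**Figure D4:**
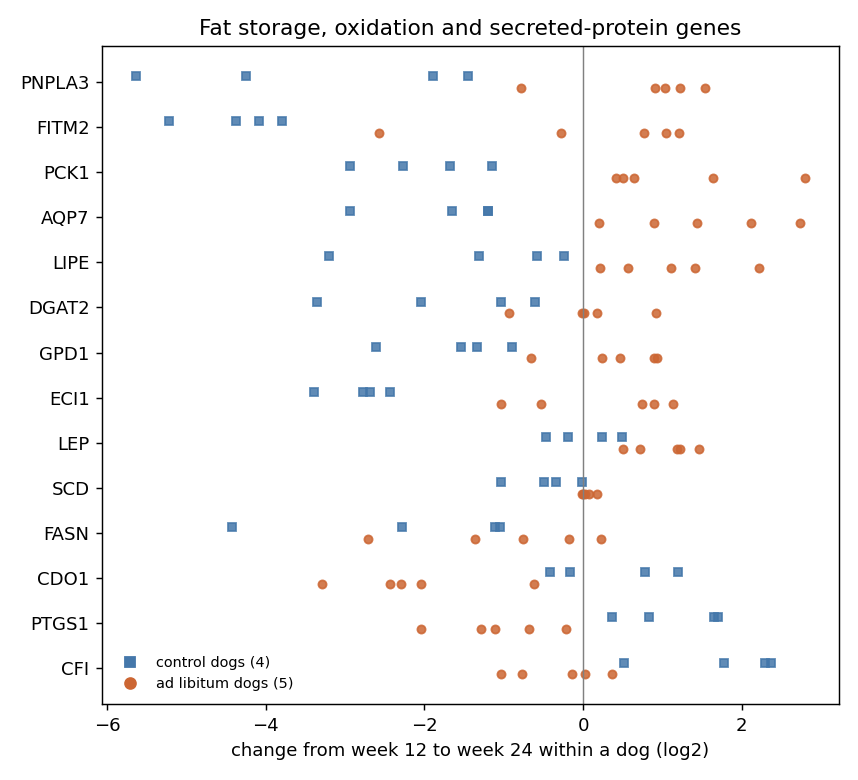
Change from week 12 to week 24 within each dog (log2) for 14 genes at their brightest probe set (blue squares, 4 control dogs; orange circles, 5 ad libitum dogs). PCK1, AQP7 and LIPE were lower at week 24 in every control and higher in every ad libitum dog, FASN overlapped, and CDO1, PTGS1 and CFI lay lower in the ad libitum dogs.

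Fatty acid synthesis gave a weaker picture. Its 15 measured genes had a median late shift of 0.56, with 10 positive and 4 at an unadjusted p under 0.05 (12.4% of all genes). PNPLA3, at 4.47 (adjusted p = 0.104 in limma), had the smallest p of the list. The median was -0.05 without the arrays with muscle. FASN, the fatty acid synthase, was at 1.16 (adjusted p = 0.446 in limma), with changes that overlapped between the groups, and at -0.08 without those arrays. SCD, which desaturates fatty acids, was at 0.49 (adjusted p = 0.214) at its brightest probe set, which lies near the top of the scale, and its 3 probe sets ranged up to 3.39. SREBF1, which switches on lipid synthesis, was at 2.45 (adjusted p = 0.126), with its other probe set at 0.54. In controls 7 of the 15 genes fell (17.9% of all genes), FASN by 2.18 (adjusted p = 0.00796) and SCD by 0.46 (adjusted p = 0.0252). The pentose phosphate pathway, which supplies the reducing power for synthesis, was positive in 5 of 5 genes, with a median of 0.77, and 4 of the 5 fell in controls (17.9% of all genes). Its members RPE, TKT and PGD were at 1.28, 1.29 and 0.77, with adjusted p-values of 0.104, 0.128 and 0.203. Fatty acid uptake did not share this lean: 6 of 13 genes were positive, the median was -0.14, and LPL, which frees fatty acids from lipoproteins, was at 0.31 (adjusted p = 0.781) and at -0.01 without the arrays with muscle.

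Secreted signals of fat cells and their regulators were mixed. LEP, which encodes leptin, changed by -0.19, -0.46, 0.24 and 0.49 in controls 1, 3, 4 and 9 and by 0.72, 1.46, 1.18, 0.51 and 1.23 in ad libitum dogs 2, 5, 6, 7 and 8. Every ad libitum dog thus lay above every control, as in 6.59% of all genes tested. The margin was narrow, 0.51 in ad libitum dog 7 against 0.49 in control dog 9. The change was positive in 5 of 5 ad libitum dogs and also in controls 4 and 9. The late shift of LEP was 1.08 (SE 1.05, adjusted p = 0.596 in limma; 0.0882 over the within-dog changes), and the level itself differed widely between dogs, from 8.56 to 12.63 at week 12. ADIPOQ (adiponectin) was at 0.52 (adjusted p = 0.324) and PPARG, the master regulator of fat cells, at 0.23 (adjusted p = 0.863) and at -0.21 without the arrays with muscle. NNAT, neuronatin, was at 2.40 (adjusted p = 0.104) and fell by 2.11 in controls (adjusted p = 0.00242). KLF5, an early factor of fat cell formation, was at -2.44 (adjusted p = 0.127) and rose by 2.21 in controls (adjusted p = 0.00429). Of 10 adipokines, 1 was higher and 2 lower at an unadjusted p under 0.05, and of 10 transcription factors 3 were higher and 2 lower, beside 12.4% higher and 7.02% lower over all genes. In insulin signalling and glucose use, 12 of 16 genes were positive with a median of 0.45, and AKT2, the insulin-activated kinase, was at 2.72 (SE 0.712, adjusted p = 0.101), with a fall by 1.83 in controls (adjusted p = 0.00949).

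Genes of the respiratory chain had positive values throughout, none past the threshold. All 34 measured genes of complex I, which feeds electrons from NADH into the chain, were positive, with a median late shift of 0.81. Of these, 26 had an unadjusted p under 0.05 (12.4% of all genes). They ran from 0.14 to 1.44. In control dogs 30 of the 34 fell at an adjusted p of 0.05 in limma (17.9% of all genes fell). In ad libitum dogs 0 changed at that bound (0.582% of all genes rose and 0.615% fell). The medians by dog were -0.99 to -0.61 in controls and -0.55 to 0.32 in ad libitum dogs, and did not overlap. NDUFC2 was at 1.38 (SE 0.397, adjusted p = 0.114) and NDUFA7 at 1.15 (SE 0.327, adjusted p = 0.111). NDUFA7 changed by -0.74, -1.21, -0.81 and -1.27 in controls 1, 3, 4 and 9 and by 0.05, -0.52, -0.27, -0.17 and 0.62 in ad libitum dogs 2, 5, 6, 7 and 8. Complexes II to V, which end in the ATP synthase, were positive in 23 of 23 genes, with a median of 0.77, and 19 of the 23 fell in controls (17.9% of all genes). Without the arrays with muscle the medians were 0.69 for complex I, with 17 of 34 genes at an unadjusted p under 0.05 (763 of all 9113 genes were higher), and 0.63 for complexes II to V. With the actin covariate the medians of the lists were 0.68 and 0.56, and 9 of 34 and 3 of 23 genes had an unadjusted p under 0.05, where 4.02% of all genes did.

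The enzymes that feed the chain followed. In fatty acid oxidation 19 of 21 genes were positive with a median of 0.90, and 8 fell in controls (17.9% of all genes). Among them were ETFB, which passes on electrons from fatty acids, by 1.67 (adjusted p = 5.29e-04 in limma), HADH by 1.43 (adjusted p = 0.00184) and ECHS1 by 1.41 (adjusted p = 0.00326). The late shifts of ETFB, HADH and ECHS1 were 1.56, 1.35 and 1.45, with adjusted p-values of 0.104, 0.132 and 0.133. ECI1, at its brightest probe set 3.20 (adjusted p = 0.0755), changed by -2.43, -3.39, -2.69 and -2.78 in controls 1, 3, 4 and 9 and by 0.74, -1.03, 0.89, -0.53 and 1.14 in ad libitum dogs 2, 5, 6, 7 and 8, with no overlap. In the citric acid cycle 17 of 20 genes were positive with a median of 0.75, and citrate synthase (CS) was at 1.40 (adjusted p = 0.148). The proteasome, which degrades tagged proteins, was positive in 23 of 27 genes with a median of 0.44, and 18 of the 27 fell in controls (17.9% of all genes). PSMA7, a subunit of its core, was at 0.65 (adjusted p = 0.110). Cholesterol synthesis was positive in 13 of 15 genes with a median of 0.81, though SQLE, the squalene epoxidase, was at -1.65 (adjusted p = 0.155) and rose by 1.78 in controls (adjusted p = 0.00386), opposite to INSIG1, the brake on that pathway, which fell by 2.19 in controls (adjusted p = 0.00534).

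**Figure D5:**
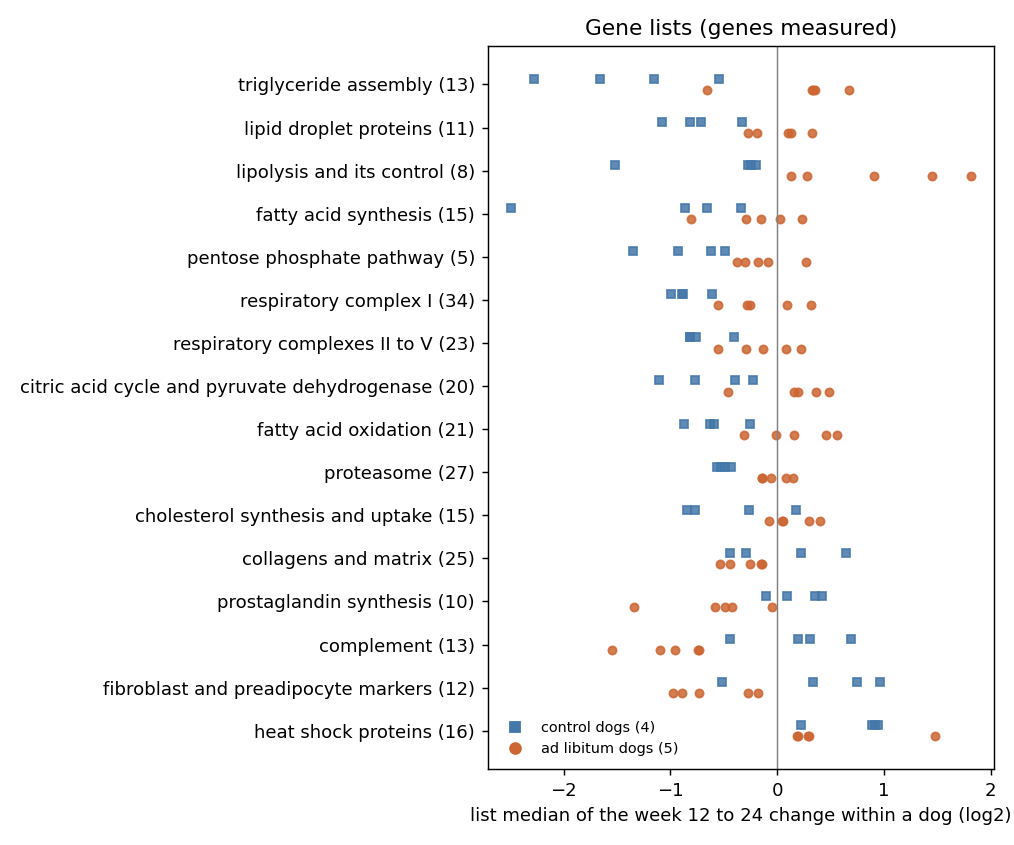
Median change from week 12 to week 24 within each dog (log2) over the measured genes of 16 lists, with the number of genes in brackets (blue squares, 4 control dogs; orange circles, 5 ad libitum dogs). Lipid droplet, lipolysis, pentose phosphate, complex I and proteasome medians lay higher in every ad libitum dog than in any control, complement medians lay lower, and heat shock proteins were above 0 in all 9 dogs.

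Complement genes leaned the other way. None of the 13 measured complement genes had a positive late shift. Their median was -1.18, 6 of the 13 had an unadjusted p under 0.05 (7.02% of all genes were lower at that bound), and 0 passed the threshold. The medians by dog were -1.55 to -0.73 in ad libitum dogs and -0.44 to 0.69 in controls, with no overlap. CFI, the protease that cuts down active complement, had levels in controls 1, 3, 4 and 9 of 9.91, 8.68, 9.66 and 9.25 at week 12 and 10.42, 11.05, 11.44 and 11.54 at week 24. Ad libitum dogs 2, 5, 6, 7 and 8 were at 9.12, 11.09, 10.93, 9.47 and 10.93 and then at 9.15, 10.94, 10.16, 9.83 and 9.89. All controls gained more than any ad libitum dog, for a late shift of -2.33 (SE 0.703, adjusted p = 0.124 in limma) and a rise of 1.98 in controls (adjusted p = 0.00554). C1R, which starts the classical pathway, was at -1.76 (adjusted p = 0.175), and its inhibitor SERPING1 at -1.48 (adjusted p = 0.182), with all 5 probe sets between -1.67 and -1.30. Without the arrays with muscle the list median was -1.29 and 3 of 13 had an unadjusted p under 0.05 (532 of all 9113 genes were lower). With the actin covariate these were -0.90 and 0 (2.08% of all genes).

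Prostaglandin genes were negative in 9 of 10, with a median of -0.88. PTGS1, the constitutive cyclooxygenase, changed by 1.66, 0.36, 1.71 and 0.83 in controls 1, 3, 4 and 9 and by -2.04, -0.21, -1.29, -0.69 and -1.11 in ad libitum dogs 2, 5, 6, 7 and 8. Every control was higher and every ad libitum dog lower at week 24, with a late shift of -2.23 (SE 0.663, adjusted p = 0.122 in limma; 0.0513 over the within-dog changes). The median change of the list was -0.37 in ad libitum dogs and 0.21 in controls. PTGDS, which makes prostaglandin D, was the one gene of the list whose change in ad libitum dogs passed the threshold. It fell there by 2.37 (adjusted p = 0.0371), with a late shift of -2.30 (adjusted p = 0.175). CDO1, which breaks down cysteine on the way to taurine, also fell in every ad libitum dog. Its level in ad libitum dogs 2, 5, 6, 7 and 8 went from 13.81, 13.88, 13.43, 15.60 and 12.23 to 10.52, 11.44, 12.81, 13.30 and 10.20, and in controls 1, 3, 4 and 9 from 14.72, 14.47, 14.61 and 13.95 to 15.50, 14.30, 14.19 and 15.15. All ad libitum dogs were below all controls at week 24. The late shift was -2.90 (SE 1.03, adjusted p = 0.152; 0.0549 over the within-dog changes), the ad libitum change was -2.25 (adjusted p = 0.0773), and all 4 probe sets were negative.

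Fibroblast and preadipocyte markers were negative in 11 of 12 genes, with a median late shift of -1.27 and 3 at an unadjusted p under 0.05 (7.02% of all genes). With the actin covariate the median was -0.98 and 0 of 12 were at that bound (2.08% of all genes). Without the arrays with muscle these were -1.01 and 2 (532 of all 9113 genes were lower). FAP, a protease of activated fibroblasts, was at -2.08 (adjusted p = 0.222 in limma), and the matrix proteoglycans LUM and DCN were at -1.44 and -0.57 (adjusted p = 0.195 and 0.191). Collagens and matrix proteins were spread over both signs, 9 of 25 positive with a median of -0.37. COL1A1, a main fibre collagen, was at -1.12 (adjusted p = 0.217), while COL15A1, a basement membrane collagen that fat cells make, was at 1.55 (adjusted p = 0.130) and fell by 0.98 in controls (adjusted p = 0.0350).

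Several chaperones rose in the controls. Of 16 measured heat shock proteins 9 rose in control dogs from week 12 to week 24 (15.4% of all genes rose), 1 fell and 0 changed in ad libitum dogs, at an adjusted p of 0.05 in limma. HSPH1 rose by 4.47 in controls (adjusted p = 2.90e-04) and was at 1.88 in ad libitum dogs (adjusted p = 0.132), for a late shift of -2.58 (adjusted p = 0.182). HSP90AA1 rose by 1.78 in controls (adjusted p = 4.08e-04), for a late shift of -1.07 (adjusted p = 0.187). HSPA5, the main chaperone of the endoplasmic reticulum, rose by 1.26 in controls (adjusted p = 0.00854) and had a late shift of -1.66 (SE 0.480, adjusted p = 0.115). The heat shock list had a median late shift of -0.49, and its medians by dog overlapped, from 0.23 to 0.95 in controls and from 0.19 to 1.48 in ad libitum dogs, where dog 6 was the highest.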

How the data were processed

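The authors deposited 1 log2 expression value per probe set and array. The submitters' processing notes name GCRMA, with no version; the log base was read from the values (0.42 to 17.51, array medians 3.60 to 3.83), and no source used here gives other steps. The file carries no counts, so depth is unknown and the number of arrays limits the precision.

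Probe sets above log2 4 on at least 4 of the 45 arrays were tested (22690). limma 3.58.1 with statmod 1.5.0 in R 4.3.3 fitted 10 group-week means, a term for batches 1 to 5 that sums to 0, and dog as a block (correlation 0.00562, 31 residual degrees of freedom), with Benjamini-Hochberg adjustment over all probe sets. The fit was tested on simulated data. Dogs pair the samples by the animal id in the labels; deviations of the same dog at weeks 12 and 24 correlated by 0.01 to 0.62. Of the tested probe sets, 16915 had 1 gene symbol in the platform table, 271 several and 5504 none.

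Genes were named by rule: per sign, the 8 genes of smallest p among probe sets with a mean of at least 6 in some group and week (counting those past the threshold), members of 43 gene lists among the 4 with the smallest p at the brightest probe set, and 11 fixed genes. The members and lists were chosen with earlier results of these data known. Alternatives covered batch, block, filter, normalization, moderation, the actin covariate, arrays with muscle RNA (mean of 25 markers above 7), the week-8 arrays of dogs 5 and 9, and each dog left out. Leaving out just the 2 week-24 control arrays with muscle was chosen after seeing the data.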

Additional observations from a re-analysis of the deposited data

Results flagged for a closer look

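The late shift is itself a difference between the groups' changes, so each of its 8 calls in limma is listed: PFKFB3 at 2.68, KIAA1191 at 3.89, ZCCHC24 at 2.88, the 2 unnamed probe sets at 2.41 and 1.90, AZGP1 at -5.71, TBC1D8 at -1.75 and KIF5A at -1.37.

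A dog stood apart from the others of its group in 5 of 64 sets of changes that were checked, where chance gives about 1 in 20. In control dogs the AZGP1 change was 3.33 in dog 4, the change of the second unnamed probe set was -0.40 in dog 1 and the PKP4 change was 1.00 in dog 1. The CCL2 change, for a chemokine that draws in monocytes, was 4.56 in control dog 1. The change of the skeletal muscle marker mean was -2.48 in ad libitum dog 7.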

How the results depend on the processing

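The 8 calls of the late shift in limma became 148, with 5 of the 8 among them, over the within-dog changes (a replicate block with no batch term), 3 without the filter, 5 with the filter at 6, 2 with each array centred on its median, 4 without the arrays with muscle, 1 without the 2 week-24 control arrays with muscle and 0 with the actin covariate; leaving out 1 dog gave 0 to 502. Dog as a fixed replicate block gave 7 calls, 3 of them among the 8, and no replicate block gave 7; no batch term gave 6 and quantile normalization 8. The causes were not tested. The 7360 calls of the change in control dogs became 1 with the actin covariate, 3521 without the arrays with muscle and 2428 without the 2 week-24 control arrays with muscle, and 2014 to 8241 with 1 dog left out. The 262 in ad libitum dogs became 131 without the filter, 114 with the actin covariate and 12 to 835 with 1 dog left out. The group difference of the actin change was -2.22 to -1.42 with 1 dog left out (exact permutation p 0.0179 to 0.0857) and -0.082 with GAPDH in its place; that of the muscle mean was -4.48 to -2.32 (p 0.0536 to 0.343).

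AZGP1 kept its direction under 22 of 22 alternatives and its call under 10 (adjusted p 2.87e-04 to 0.543), KIAA1191 under 11 (0.00341 to 0.543), PFKFB3 under 8 (0.00341 to 0.674) and TBC1D8 under 3 (0.0107 to 0.785). KIF5A kept its call under 14 of 21 (1.88e-04 to 0.128) and ZCCHC24 under 9 of 21 (0.00260 to 0.278). The sign turned for FASN, to -0.079 without the arrays with muscle and -0.20 without the 2 week-24 control ones; for LPL, to -0.011 and -0.075; for PPARG, to -0.21 and -0.35, and to -0.02 without control dog 1 and -0.044 without ad libitum dog 8, in a range up to 0.51 with 1 dog left out; and for CCL2, to 0.069 without control dog 1, in a range down to -1.66.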

Other observations

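T and NK cell, macrophage and endothelial markers gave no common direction in the late shift. T and NK cell markers had a median of -0.22 over 10 genes, because they were lower at week 24 in both groups, with medians of -1.22 in control and -1.38 in ad libitum dogs, changes that are also changes of batch. Macrophage markers had a median of -0.11 over 15 genes, and CD68, a macrophage lysosomal protein, was at 0.65 (adjusted p = 0.753 in limma). MRC1, the mannose receptor of tissue macrophages, was at -2.29 (adjusted p = 0.169) and rose by 1.86 in controls (adjusted p = 0.0259). Neutrophil and mast cell markers were negative in 5 of 6 genes, with a median of -1.17 and 2 at an unadjusted p under 0.05 (7.02% of all genes). CPA3, a protease stored by mast cells, was at -4.04 (SE 1.41, adjusted p = 0.149) and rose by 2.98 in controls (adjusted p = 0.0279), and its changes did not overlap, from -3.08 to 0.35 in ad libitum dogs and from 0.80 to 4.00 in controls. The mast cell genes CMA1 and MS4A2 were at -1.45 and -1.12 (adjusted p = 0.450 and 0.198). Endothelial markers had a median of -0.01 over 13 genes with members on both sides: EMCN, endomucin, was at -1.81 (adjusted p = 0.131) and rose by 1.77 in controls (adjusted p = 0.00296), while ESAM, a junction protein, was at 1.63 (adjusted p = 0.146) and fell by 1.42 in controls (adjusted p = 0.0102).

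Interferon response genes had a median late shift of 0.03 over 13 genes, with 0 at an unadjusted p under 0.05 in either direction. Inflammatory genes had a median of -0.53 over 16, and CCL2 was at -1.17 (adjusted p = 0.656 in limma). Among 11 clock genes, the repressor CRY2 rose in ad libitum dogs by 1.57 (adjusted p = 0.00267), with a late shift of 1.03 (adjusted p = 0.191), while its relative CRY1 rose in controls by 1.57 (adjusted p = 0.00254), with a late shift of -1.18 (adjusted p = 0.197). S100B, a calcium-binding protein of Schwann cells that fat cells also make, was at 3.50 (SE 0.891, adjusted p = 0.0966; 0.0401 over the within-dog changes), and its 3 probe sets ranged from 3.50 to 4.87. The 3 measured Schwann cell and nerve markers did not share this direction, with a median of 0.03. PMP22 was at -0.97 (adjusted p = 0.151 in limma) and NCAM1 at 0.03. PPARGC1A, a coactivator of mitochondrial genes, was at 2.40 (adjusted p = 0.173), with an ad libitum change of 2.21 (adjusted p = 0.0577) and a control change of -0.19.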
